A study of Mus musculus with 9 samples.

Results

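Differentially methylated regions (DMRs) at the keratin genes were examined in the neonatal mouse hypothalamus after modified maternal separation (MMS). The genes were the 53 protein-coding genes of the GENCODE vM21 annotation with a symbol of Krt and a number, and a DMR was taken when it overlapped a gene body or lay within 10 kb of it. Members were chosen from the authors' list of DMRs, so the difference between the groups is itself what selected them and is given here as a description. This gave 12 DMRs of the 12949 listed across the genome, at 16 of the 53 genes, with a DMR between neighbouring genes counted once.

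The mice were male C57/Bl6 pups. MMS pups spent 1.5 h per day away from the dam from postnatal day 4 to postnatal day 6 and were turned onto their backs during that time, and controls were their male littermates. The hypothalamus was taken from both groups on postnatal day 6. Each group had 10 animals, whose DNA was combined into 3 pools, so that 1 library holds several animals. Methylated DNA immunoprecipitation (meDIP) pulls down DNA that carries methylated cytosine, so both the methylation and the CpG content of a region set how many reads it receives. The deposited list gives the authors' mean of normalised reads in each group on the log2 scale and no value per library. The spread between pools, and so an error or a test of any value below, could not be computed from these means, the authors' own test columns were not used, and the number of raw reads behind a value was not used here.

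Keratins are the intermediate filament proteins of epithelial cells. A type I and a type II keratin pair to build each filament, and the pairs differ between simple epithelia, the layers of stratified epithelia such as epidermis and cornea, and the parts of the hair follicle. In the mouse the type I genes lie together on chromosome 11 and the type II genes on chromosome 15, with the type I gene Krt18 at the end of the type II cluster. Neurons and glia use other intermediate filament proteins. Expression was not measured in these libraries, and whether the keratin genes were silent in this tissue was not tested here.

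The reference sequence (GRCm38.p6, the same coordinates as mm10, plus strand unless stated, CpG sites in capitals) is shown for DMRs that differ most in CpG content, in position on the gene or in level. For all but Krt75 the stretch is the 150 bp of the DMR with the most CpG sites. The first 3 lie inside keratin genes: the Krt8 stretch at chr15:102003814-102003963 holds 8 CpG sites, the Krt12 stretch at chr11:99421896-99422045 holds 6 and the Krt77 stretch at chr15:101865747-101865896 holds 7.
Krt8: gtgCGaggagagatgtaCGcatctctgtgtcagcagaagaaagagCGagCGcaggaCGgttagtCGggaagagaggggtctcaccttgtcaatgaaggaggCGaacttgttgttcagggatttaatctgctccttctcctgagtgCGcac
Krt12: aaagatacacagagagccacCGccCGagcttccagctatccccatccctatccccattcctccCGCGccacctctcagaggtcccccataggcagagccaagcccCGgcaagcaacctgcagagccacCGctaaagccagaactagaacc
Krt77: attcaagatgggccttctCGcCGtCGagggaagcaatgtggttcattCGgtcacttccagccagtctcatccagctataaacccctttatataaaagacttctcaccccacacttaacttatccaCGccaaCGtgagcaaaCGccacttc

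The Krt75 DMR covers the start of its gene. Shown are the 250 bases before the RefSeq start site at chr15:101573905-101574154, on the minus strand, which is that of the gene, with 4 CpG sites.
Krt75: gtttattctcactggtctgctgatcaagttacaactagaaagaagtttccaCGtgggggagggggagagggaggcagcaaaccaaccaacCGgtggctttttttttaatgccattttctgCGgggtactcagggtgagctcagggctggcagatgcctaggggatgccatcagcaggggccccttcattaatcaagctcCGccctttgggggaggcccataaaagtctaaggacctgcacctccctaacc

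The last 3 lie outside genes. The stretch upstream of Krt19 (chr11:100155330-100155479, 4 CpG sites) comes from the DMR with the largest difference between groups, that upstream of Krt33a (chr11:100018051-100018200, 6 CpG sites) from the DMR with the highest mean, and that upstream of Krt18 (chr15:102024571-102024720) from a DMR with 0 CpG sites.
Krt19: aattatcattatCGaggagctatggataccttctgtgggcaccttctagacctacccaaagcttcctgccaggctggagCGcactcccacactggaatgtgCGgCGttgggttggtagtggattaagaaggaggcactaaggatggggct
Krt33a: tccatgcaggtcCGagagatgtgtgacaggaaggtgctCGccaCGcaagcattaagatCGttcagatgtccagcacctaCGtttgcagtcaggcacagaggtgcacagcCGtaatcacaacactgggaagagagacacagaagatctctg
Krt18 upstream: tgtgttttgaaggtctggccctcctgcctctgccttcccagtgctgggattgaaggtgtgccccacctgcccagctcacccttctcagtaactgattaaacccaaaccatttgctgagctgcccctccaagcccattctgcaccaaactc

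Of the 12 DMRs at keratin genes, 7 were higher in MMS and 5 in control. That is 58.3% higher in MMS (95% Wilson interval 32.0% to 80.7%, counting error only), beside 62.6% of all listed DMRs. The list holds only regions called different, so this share says nothing about keratin sequence that was not listed. Subtracting control from MMS gave a median log2 difference of 3.40 in those 7 and of -1.30 in those 5. Over all listed DMRs these medians were 3.43 and -1.73. Control was at its lowest value in the list, -0.17 on the log2 scale, in 3 of the 12, beside 3917 of all 12949 DMRs. Within 0.5 of that value were 3 of the 12 (25.0%) and 33.0% of all listed DMRs. A difference against a group at its lowest value depends on where that value was set.

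**Figure D1:**
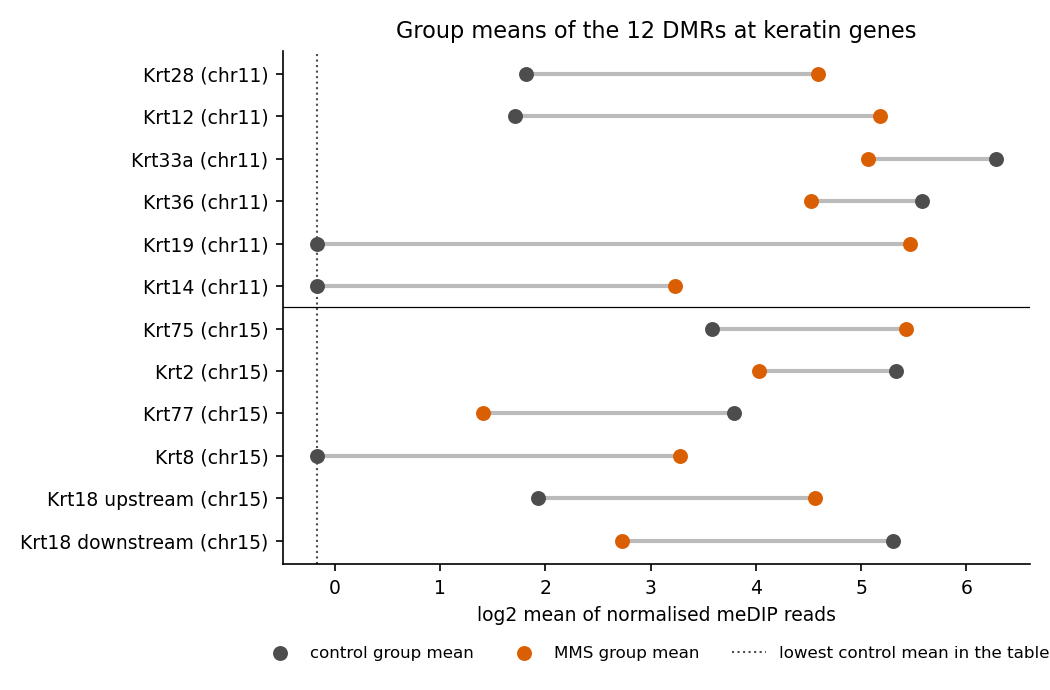
Group means of the 12 DMRs at keratin genes, named by the nearest keratin gene and ordered along chromosome 11 (above the line) and chromosome 15 (below it). The x axis is the authors' log2 mean of normalised meDIP reads for control (grey) and MMS (orange), with no error because no value per library was used. Control sits on the dotted line, its lowest value of -0.17, for Krt19, Krt14 and Krt8, and is the higher group for Krt33a, Krt36, Krt2, Krt77 and the DMR downstream of Krt18.

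Simple epithelial keratins, the filament proteins of single-layered epithelia, had a DMR at 4 of 6 genes (66.7%), beside 28.6% of all protein-coding genes and 17.5% of those no longer than the longest keratin gene. In the gene body 1 of the 6 had one, Krt8 (16.7%). Beside this stand 18.9% of all protein-coding genes and 6.41% of those no longer than the longest keratin gene. Krt8 and Krt18 encode partners that form one filament, and they lie next to each other on chromosome 15 with 3 DMRs at the pair. The Krt8 DMR (chr15:102003438-102004036, 599 bp) covered 139 bp of coding sequence at the end of exon 1 and 460 bp of intron 1. Its mean was at the lowest value in control (-0.17) and 3.28 in MMS, which is 9.71 normalised reads. By the mean of its higher group it stood at the percentile 4.67 of the list. It was the only one of the 12 DMRs with a second match in the reference of at least 100 bp at 95% identity: 142 bp at 99.3% identity on chromosome 7 (23357328 to 23357469), inside the processed pseudogene Krt8-ps, which lies within Nlrp4e. Reads from the exonic part of this DMR can therefore stem from either place, and how the authors' alignment placed them was not tested.

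At Krt18 the DMRs on the 2 sides of the gene differed in direction. The upstream DMR (chr15:102024487-102024803, 317 bp), 3377 bp before the gene, had a mean of 1.93 in control and 4.56 in MMS, a difference of 2.63 on the log2 scale. The downstream DMR (chr15:102032304-102032582, 279 bp), 277 bp past the end of the gene, had 5.30 in control and 2.73 in MMS, a difference of -2.57. In normalised reads these were 3.81 and 23.6 upstream, and 39.4 and 6.63 downstream. Only 7500 bp separate the pair, and the gene body of Krt18 between them held no listed DMR.

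Krt19, a type I keratin of simple and ductal epithelia, had a DMR 6451 bp upstream of its gene body (chr11:100155116-100157084). At 1969 bp it was the widest of the 12. Its mean was at the lowest value in control (-0.17) and 5.46 in MMS, or 44.0 normalised reads. The log2 difference of 5.63 stood at the percentile 99.7 of the DMRs higher in MMS, with the lower group again at the value on which the size depends. Krt20, a keratin of intestinal and urinary epithelium, was reached only by the DMR of its neighbour Krt12, 6292 bp away. Krt7 had its nearest listed DMR 142742 bp away, the farthest of all 53 genes, and Krt23 had it 23103 bp away.

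Keratins of stratified epithelia had a DMR at 6 of 21 genes, or 28.6%, the same share as over all protein-coding genes. Of those no longer than the longest keratin gene it was 17.5%. Krt12, the type I keratin of the corneal epithelium, carried one wholly inside the coding part of its exon 1 (chr11:99421770-99422111, 342 bp), its centre 318 bp past the start site. The mean was 1.71 in control and 5.18 in MMS, a log2 difference of 3.47. An antisense RNA gene, A830036E02Rik, spans the same DNA, and meDIP reads do not tell the genes apart. A DMR between Krt14, of the basal epidermal layer, and Krt9, of palm and sole skin, lay 4085 bp past the end of the one and 5664 bp before the other (chr11:100198910-100199077). It was the narrowest of the 12 at 168 bp, with control at the lowest value (-0.17) and MMS at 3.23, or 9.38 normalised reads.

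Krt2 and Krt77, both type II keratins of the epidermis, had DMRs inside the gene that were higher in control. The Krt2 DMR (chr15:101815006-101815861, 856 bp) covered 96 bp of exon 4, all of it coding, and parts of introns 3 and 4, with a mean of 5.33 in control and 4.03 in MMS. The Krt77 DMR (chr15:101865733-101865902, 170 bp) lay in intron 1 with 3.79 in control and 1.41 in MMS. Their log2 differences were -1.30 and -2.38. They are neighbours along the cluster, 49871 bp apart, with Krt1 between them, which had no listed DMR within 10 kb. Its filament partner Krt10, a marker of differentiating epidermis, was reached only by the DMR upstream of Krt28, 7452 bp past its own end.

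In the inner root sheath and companion layer of the hair follicle, 2 of 8 keratin genes had a DMR (25.0%). Beside this stand 28.6% of all protein-coding genes and 17.5% of those no longer than the longest keratin gene. Both DMRs were higher in MMS, as were 62.6% of all listed DMRs. The Krt28 DMR (chr11:99376553-99377802, 1250 bp) lay 1650 bp upstream of its gene with 1.82 in control and 4.59 in MMS. The Krt75 DMR (chr15:101573849-101574699, 851 bp) ran over the start site, with 56 bp in the noncoding part of exon 1 and 795 bp upstream, and had 3.58 in control and 5.43 in MMS. In normalised reads the latter is 12.0 and 43.1. Among the 12 DMRs this was the only one that overlapped a promoter in the RefSeq table, which matched 36 of the 53 keratin genes. The letters TATAAA, searched on both strands, were in 19 of the 37 promoters of these genes and in 13.6% of the 32851 promoters in the table, and were not found in the Krt75 window of 250 bases before to 50 after the start.

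Hair shaft keratins had a DMR within reach of 4 of 15 genes (26.7%). Beside this stand 28.6% of all protein-coding genes and 17.5% of those no longer than the longest keratin gene. Both DMRs lay between neighbouring genes and were higher in control, as were 37.4% of all listed DMRs. That between Krt33a and Krt33b (chr11:100017338-100018534, 1197 bp), 1126 bp upstream of Krt33a and 5100 bp past the end of Krt33b, had the highest mean of the 12, with 6.28 in control and 5.07 in MMS. In normalised reads this is 77.7 and 33.6. The DMR between Krt35 and Krt36 (chr11:100099151-100099666, 516 bp) had 5.58 in control and 4.52 in MMS. The log2 differences of -1.21 and -1.06 were the smallest in size of the 12, at the percentiles 6.60 and 3.31 of all listed DMRs by size. The 3 keratins outside these classes, Krt88, Krt90 and Krt222, had no DMR in reach.

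**Figure D2:**
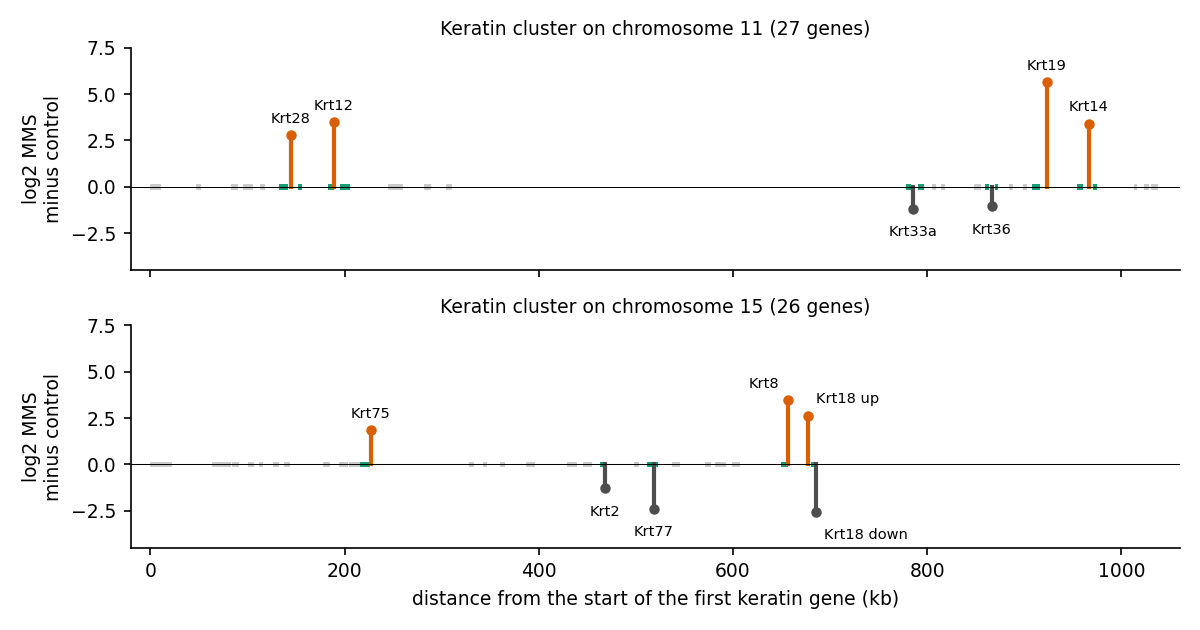
DMRs along the keratin clusters of chromosome 11 (27 genes, upper panel) and chromosome 15 (26 genes, lower panel), by distance in kb from the start of the first gene. Stems give the log2 difference, MMS minus control (orange above 0, grey below), and blocks on the line are genes, green where a DMR lies within 10 kb. Krt8 and the DMR upstream of Krt18 point up beside the downward DMR past Krt18, and the wide gap in the upper panel holds no Krt gene.

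The windows of the 53 genes joined to 509 kb on chromosome 11 and 535 kb on chromosome 15, with 6 DMRs in each. That is 11.8 and 11.2 DMRs per Mb of window, beside 6.91 and 5.11 per Mb over the whole of these chromosomes. Over the full stretch from the first to the last gene, with 10 kb added at each end, the density was 9.46 and 8.52 per Mb. A window was drawn around genes, whereas the chromosome figure includes gene-poor DNA, and no test of the difference was made.

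By gene, 16 of 53 keratin genes (30.2%) had a DMR in the gene body or within 10 kb. The share was 28.6% of all protein-coding genes and 17.5% of those no longer than the longest keratin gene (Krt80, 22719 bp). This comparison has no lower length limit, whereas keratin genes ran from 2812 to 22719 bp, so it is not matched for length. The keratin count leans on sharing, because 5 DMRs each reached a pair of keratin genes. With each DMR counted for its nearest keratin gene alone, 11 genes had one, a count given without a share over all protein-coding genes. In the gene body alone 5 did (9.43%), beside 18.9% of all protein-coding genes and 6.41% of those no longer than the longest keratin gene. On chromosome 11, 11 of 27 genes had a DMR in reach and 1 had it in the gene body, and on chromosome 15 it was 5 of 26 with 4 in the gene body. The other 37 keratin genes had their nearest listed DMR between 10899 and 142742 bp away, with a median of 50861 bp. The farthest DMR taken was that of Krt19. The nearest one left out lay 10061 bp past Krt18 (chr15:102042088-102043388), with 1.72 in control and 4.09 in MMS.

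The sequence of the DMRs was not used to choose them. Their CpG density ran from 0 to 4.12 sites per 100 bp with a median of 1.05, beside 1.32 over all listed DMRs and 1.20 and 1.14 over the keratin windows of chromosomes 11 and 15. The 5 DMRs touching a gene body had a median of 2.34, and those of Krt77 (4.12), Krt8 (3.01) and Krt12 (2.34) stood at the percentiles 99.0, 95.3 and 87.1 of all listed DMRs. The 7 DMRs in the flanks had between 0 and 1.20, all below the median of the list. Over all protein-coding genes the medians were 1.43 on gene bodies and 1.34 in flanks alone. The groups overlap, since Krt2 has 0.935 inside its gene and the DMRs of Krt28 and Krt33a have 1.20 and 1.17 outside theirs.

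The DMR upstream of Krt18 has 0 CpG sites in its 317 bp. Such DMRs are 2.39% of the list (310 of 12949). In the 200 bp on each side of it the reference holds 0 sites before and 3 after. The Krt8 DMR with 18 sites has 12 before and 14 after, the most of the 12 on each side, and Krt75 has 10 and 2. Few sites nearby were not particular to the DMR upstream of Krt18: Krt19 has 1 and 1, and Krt28 has 2 and 2. GC content of the 12 ran from 44.2% to 55.8% with a median of 47.9% (47.4% over the list). Repeat sequence made up 0% to 42.7% of each, with a median of 10.6% where the list had 20.6%, and was highest in the DMR downstream of Krt18. The other 11 DMRs besides Krt8 had no second match of at least 100 bp at 95% identity, although the keratin genes are paralogues of each other.

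**Figure D3:**
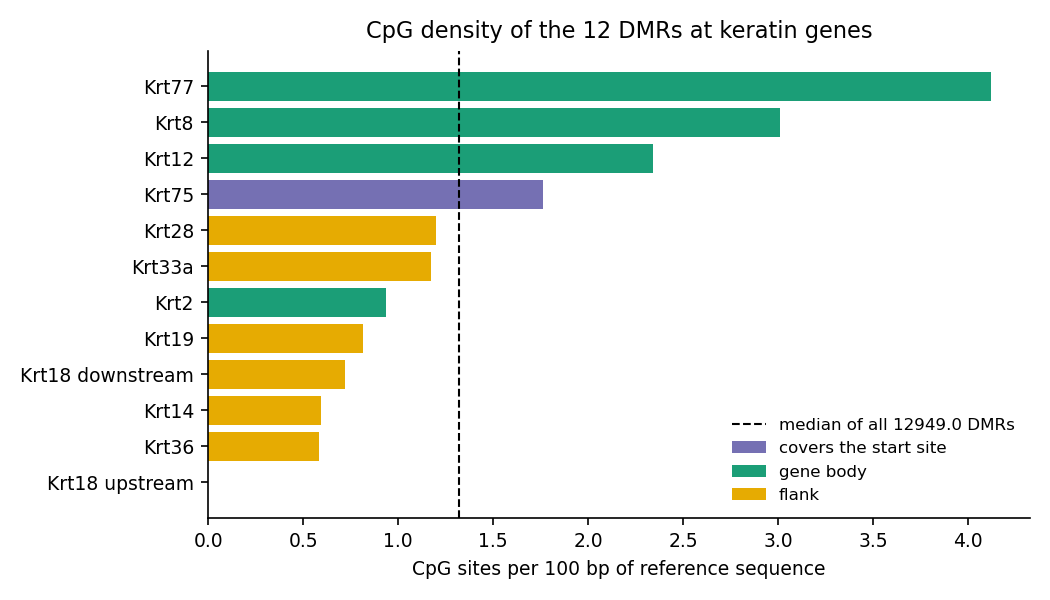
CpG sites per 100 bp of reference sequence in each of the 12 DMRs, coloured by whether the DMR covers the start site, lies in the gene body or lies in the flank. The dashed line is the median of all 12949 listed DMRs, 1.32. The DMRs of Krt77, Krt8, Krt12 and Krt75 lie above it and all 7 in flanks lie below it.

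**Figure D4:**
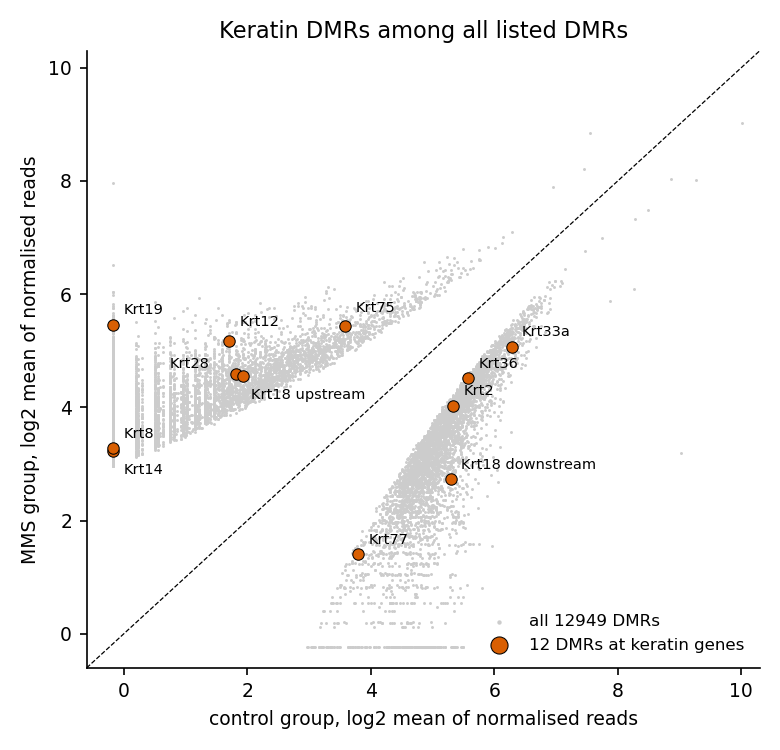
Log2 mean of normalised reads in control (x axis) and MMS (y axis) for all 12949 listed DMRs (grey) and the 12 at keratin genes (orange). The dashed line marks equal means, and the gap along it is where regions were not listed. Krt19, Krt8 and Krt14 stand in the column at the lowest control value of -0.17, and Krt33a is the keratin DMR with the highest control mean, 6.28.

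Genes related to keratins by role or by family were counted in the same windows. There 28.6% of all protein-coding genes and 17.5% of those no longer than the longest keratin gene had a DMR. Of all listed DMRs, 62.6% were higher in MMS. Keratin-associated proteins, which fill the hair shaft between keratin filaments, had a DMR at 7 of 57 genes (12.3%), from 4 DMRs that were all higher in MMS. The one over Krtap2-4 (chr11:99613568-99614496) had 1.59 in control and 4.01 in MMS. Of 16 other intermediate filament genes, 9 had a DMR (56.2%), with 6 DMRs higher in MMS and 5 in control. Bfsp1 and Bfsp2, the filament proteins of the lens, and the nuclear lamin gene Lmna had 2 each. The rest of the 9 were Nes, Synm, Lmnb2, Nefh, Nefm and Nefl. Both Bfsp2 DMRs were higher in control (5.80 against 3.14 inside the gene), both Lmna DMRs were higher in MMS (0.96 in control and 4.39 in MMS inside the gene), and Bfsp1 had one of each direction. Desmosome genes, whose products anchor keratin filaments at cell contacts, had a DMR at 2 of 15 genes (13.3%), Pkp1 and Dsg2, both higher in MMS, with Pkp1 at the lowest value, -0.17, in control. Genes of the cornified envelope, the protein shell of dead epidermal cells, had one at 4 of 48 genes (8.33%), from 3 DMRs, 2 higher in MMS and 1 in control. The DMR shared by Lce3c and Lce3d had 1.31 in control and 4.48 in MMS, and that in Sprr2e had 3.41 in control and the lowest MMS value of the list, -0.24. These lists differ in gene length, and no test between them was made.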

How the data were processed

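The series has meDIP libraries of 3 control and 3 MMS pools, an input of each group and 1 IgG control. Alignment by the authors was to mm10 in Torrent Suite. Broad peaks were called against the inputs by MACS2 (2.1 in the submitters' processing notes), and DiffBind with DESeq2 gave the comparison between groups. The paper also describes normalising to the pooled input of each group and a subtraction with the IgG control. How this step bears on the listed means was not tested. The labels name the methylcytosine antibody also for the inputs and the IgG control. The authors' deposited log2 values are means of normalised reads over all libraries and over each group, in columns named untreated and treated, read here as control and MMS. The table also holds the authors' fold change, p-value and FDR, which were not used. The overall mean matched the mean of both groups within 0.02 in all 12949 rows, and all positions lay within the chromosomes of GRCm38.

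Differences are MMS minus control, computed from the group means. No test between groups was computed, because no value per library was used. Genes and exons came from GENCODE vM21 (principal transcript), CpG, GC and soft-masked repeat shares from the reference, and second matches from BLAST 2.17.0 (at least 100 bp, 95% identity). Overlap counting was tested on simulated regions. Every keratin gene with a DMR in reach is named. Of each related list, group means are given for at most 3 genes with the most DMRs. Members and lists were chosen with earlier results of these data known. Alternatives were other distances, a minimum difference, a minimum mean, other limits for the lowest value, any biotype and the nearest gene alone. For CpG density, the 300 bp around the centre of each DMR were a further alternative. Python 3.11.15 with numpy 2.4.6, pandas 2.3.3, pysam 0.24.0 and matplotlib 3.10.9 was used.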

Additional observations from a re-analysis of the deposited data

How the results depend on the processing

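Of 27 alternatives, 22 stayed within 1.5 times the value given, or for shares within its Wilson interval. Taking gene bodies alone left 5 DMRs at 5 genes and raised the median CpG density to 2.34 per 100 bp. Within 50 kb, 34 genes had a DMR, and with a log2 difference of at least 2 in size 10 genes did. No share of all protein-coding genes is given for these 2 settings, so the counts cannot be set against a background. The share higher in MMS ran from 54.5% (within 5 kb) to 75.0% (difference of at least 2). The share of the whole list under that minimum is not given. Over all listed DMRs the median size was 3.43 in those higher in MMS and 1.73 in those higher in control. A minimum of 2 lies between these medians, so the 75.0% is not a trait of keratin DMRs. No paired analysis was possible because the values used are group means without libraries, and for the same reason leaving out each replicate was not run. The levels and differences at the keratin genes rest on 12 DMRs and on group means. No raw read count behind a mean was used here.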
